A study of Mus musculus with 24 samples.

Results

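The steady-state RNA of the nucleus accumbens (Acb) was compared between rpS6P-/- knockin mice and their wild-type littermates, with the question of which striatal, glial and metabolic transcripts stayed level without phosphorylation of ribosomal protein S6 (rpS6), and within what bounds. The libraries were chosen by their labels as the 6 whole-lysate libraries of the Acb, 3 of each genotype, out of 24 libraries in the series. In rpS6P-/- mice every phosphorylatable serine of rpS6 is replaced with alanine in all cells, throughout life, on a mixed C57Bl/6, Sv129 and ICR background that the wild-type littermates share, and both sexes were used with no drug treatment named for these libraries. Ages for these libraries are not given in the sources used here. Each library holds RNA from the pooled Acb of several mice, taken from a small part of the cytosolic lysate before the rest was spun through a sucrose gradient. The other libraries of the series are heavy polysomal fractions of the same lysates, and lysates and heavy polysomal fractions of the dorsal striatum (DS).

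rpS6 is a protein of the small ribosomal subunit. Its tail is phosphorylated by S6 kinases downstream of the mTOR pathway, by RSK kinases downstream of ERK and by protein kinase A. Antibodies to the phosphorylated form are widely used to mark recently active neurons. Whole-lysate RNA reports how much of each transcript the cleared cytosolic lysate holds, whether or not ribosomes are on it. It is the level against which any change on polysomes is read. RNA lost to the pellet when the lysate was cleared was not measured. Most neurons of the Acb are GABAergic medium spiny neurons, of which one type carries dopamine D1 receptors with substance P and dynorphin and the other carries D2 receptors with enkephalin, and they lie among interneurons, astrocytes, oligodendrocytes, microglia and vessels.

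The stretch of *Rps6* that the knockin changes is shown because it is the only difference between the genotypes by design. It is the end of the coding sequence in the GRCm38 reference, codons 225 to 249 of 249, in an exon of the gene on the minus strand of chromosome 4 at chr4:86854705-86854779, with the 7 serine codons in capitals.
Rps6 codons 225 to 249: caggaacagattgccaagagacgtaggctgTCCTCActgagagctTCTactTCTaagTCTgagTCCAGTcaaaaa
The serine codons are 235, 236, 240, 242, 244, 246 and 247, and the knockin replaces all of them but 242 and 246. Counts of reads per gene do not see single codons, so the genotype of each library could not be checked from them.

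Abundance is given as CPM, reads per 10 to the power of 6 after TMM scaling, so that a ratio of 1 means level relative to the bulk of genes and an overall change in RNA content would not be seen. The 6 libraries held 9280589 to 18177175 reads assigned to genes, and 18.1 to 26.1% of these came from the noncoding RNA *Bc1*. For every gene the ratio of rpS6P-/- to wild-type was fitted with edgeR's quasi-likelihood model over the 3 libraries of each genotype, with its 95% interval (per gene, not adjusted for the number of genes). A gene was said to lie within 1.5-fold, or within 2-fold, when both one-sided tests against that size passed after Benjamini-Hochberg adjustment over all genes tested. A gene that missed these limits was not thereby shown to differ. The replicates are separate pools of mice by the study's methods, so p-values measure the spread between pools, which the fit shares across genes (a median of 46.6 degrees of freedom a gene from 6 libraries), and the interval of a gene whose pools vary more than others of its abundance may be too narrow.

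Of 15393 genes tested, 4595 (29.9%) lay within 1.5-fold between genotypes and 9252 (60.1%) within 2-fold, and the first count was 2658 without wild-type replicate 1, the deepest library. A difference was called for 1 gene (0.0065%), *Tmem38b*, described below, and 455 (2.96%) had an unadjusted p under 0.05, 195 of them higher and 260 lower in rpS6P-/- mice (edgeR, Benjamini-Hochberg adjustment for the call). For 1281 genes (8.32%) all rpS6P-/- libraries lay on the same side of all wild-type libraries. How tightly a transcript was bounded followed its abundance. Of the 1769 genes with at least 100 CPM, 1749 (98.9%) lay within 1.5-fold, and the farther end of the 95% interval had a median of 1.25-fold. Between 10 and 100 CPM, 38.3% of 7428 genes lay within 1.5-fold and 94.2% within 2-fold, with a median bound of 1.52-fold. Between 1 and 10 CPM, 0% of 4168 genes lay within 1.5-fold and 11.7% within 2-fold, and below 1 CPM the median bound of 2028 genes was 45.2-fold. The data therefore bound common transcripts of neurons, oligodendrocytes and astrocytes closely, and say little about receptors, peptides and vessel genes that gave few reads. The lists described below hold 787 genes that passed the filter on low reads, of which 464 lay within 1.5-fold, 658 within 2-fold and 0 were called, and 15 listed genes that did not pass it. Of the 787, 52 did not overlap between genotypes, 8 had an unadjusted p under 0.05 on the higher side and 22 on the lower side, to be read beside the 8.32% and 2.96% over all genes.

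**Figure D1:**
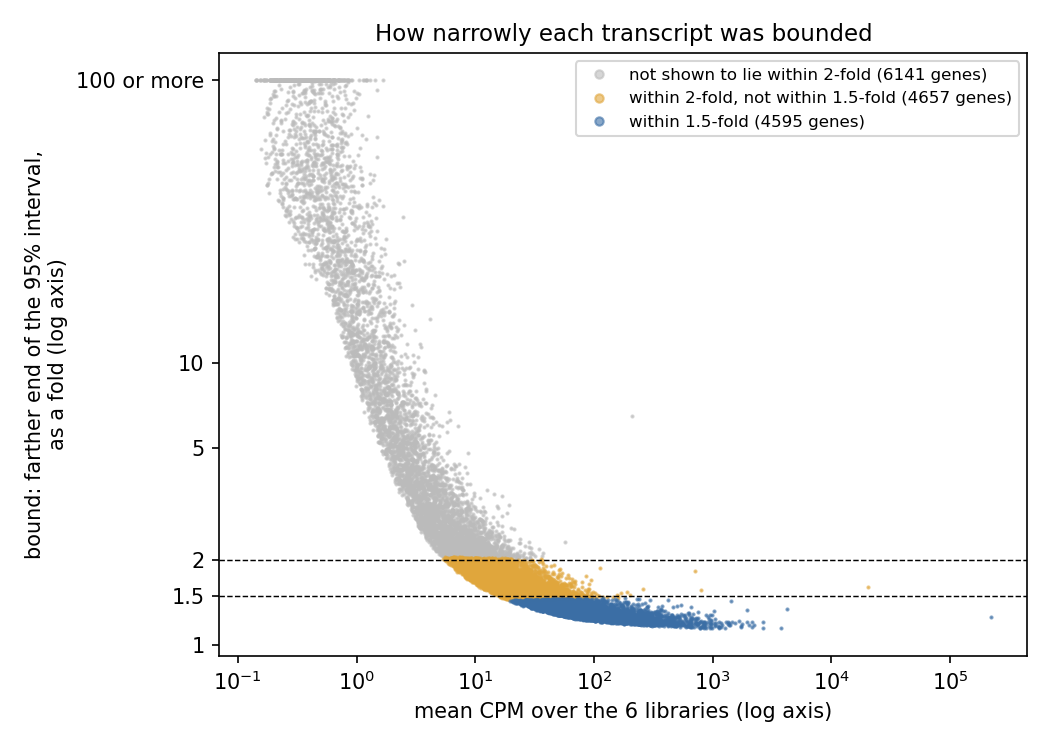
Each point is 1 of the genes tested in Acb lysates, with its mean CPM over the 6 libraries on the x axis and, on the y axis, the farther end of the 95% interval of the ratio between genotypes as a fold (both axes logarithmic, values over 100 drawn at 100). Blue points are the 4595 genes within 1.5-fold and orange points those within 2-fold only, and the bound narrows with abundance to a median of 1.25-fold at 100 CPM and above.

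*Rps6* itself had 372, 420.3 and 463 CPM in wild-type replicates 1, 2 and 3 and 419, 414 and 375 CPM in rpS6P-/- replicates 1, 2 and 3. These values overlapped, and the ratio had a 95% interval of 0.823 to 1.13, within 1.5-fold (adjusted p 0.000675 for the 2 one-sided tests, edgeR fit with Benjamini-Hochberg adjustment). The other transcripts of the ribosome were as tightly bounded. Of 79 cytosolic ribosomal protein genes tested, 76 lay within 1.5-fold and 0 were called, and the other 3, *Rps27*, *Rpl34* and *Rpl30*, had 0.782 to 2.07 CPM in the mean of either genotype. Their median log2 fold change was -0.06, against -0.000364 over all genes tested, and 57 of 79 had a lower fitted level in rpS6P-/- mice. Taking out the dependence of each library on transcript length, an alternative chosen after seeing the data, brought the medians of the small and large subunit to 0.02 and 0.01, with 12 of 33 and 21 of 46 members lower. That dependence was fitted on genes that include these short transcripts, so the fit cannot tell what part length has in the shift, which was not tested. *Rpl27a*, of the large subunit, had the largest log2 fold change among the well-counted members, -0.29 (95% interval of the ratio 0.691 to 0.973), and it too lay within 1.5-fold. Among translation factors, which start and extend the growing peptide, 37 of 45 lay within 1.5-fold and 45 within 2-fold. The elongation factor gene *Eef1a1* was among the most closely bounded of these, with a 95% interval of 0.869 to 1.1. *Eif4e*, which binds the cap of mRNAs, had 137, 117 and 129 CPM in wild-type and 161, 141 and 146 CPM in rpS6P-/- mice. The genotypes did not overlap for *Eif4e*, yet the interval of 0.97 to 1.4 placed it within 1.5-fold. Of 20 genes for the ligases that charge cytosolic tRNAs, 11 lay within 1.5-fold and 20 within 2-fold.

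Kinases and phosphatases that act on rpS6 were listed together with the mTOR pathway. Of 34 tested, 25 lay within 1.5-fold, 30 within 2-fold and 0 were called, with a median log2 fold change of 0.03. *Mtor*, the kinase at the centre of the pathway, had a 95% interval of 0.795 to 1.27, and *Rps6kb1*, which encodes S6 kinase 1, 0.734 to 1.25. The gene of the RSK kinase *Rps6ka1* had 13.1, 12.7 and 13.5 CPM in wild-type and 10.3, 11.3 and 7.21 CPM in rpS6P-/- mice. Its values did not overlap, but its unadjusted p was 0.187 and its interval, 0.461 to 1.17, was too wide for either limit. The genes of the 4E-BP repressors, *Eif4ebp1*, *Eif4ebp2* and *Eif4ebp3*, had at most 11.5 CPM in the mean of a genotype, and of them *Eif4ebp2* alone lay within 2-fold.

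Markers of the direct-pathway neurons were level for *Drd1a*, *Tac1* and *Pdyn*. *Drd1a*, the D1 receptor gene, had 234, 218 and 202 CPM in wild-type and 235, 239 and 213 CPM in rpS6P-/- mice, which overlapped, with a 95% interval of 0.886 to 1.24. *Tac1*, the precursor of substance P, had 223, 279.8 and 256 against 255, 218 and 289.7 CPM (interval 0.846 to 1.2). *Pdyn*, the dynorphin precursor, had 211, 269.6 and 207 against 257, 241 and 211 CPM (interval 0.866 to 1.23). All 3 overlapped between genotypes and lay within 1.5-fold. In all, 5 of 10 direct-pathway genes lay within 1.5-fold and 9 within 2-fold. The unadjusted p was under 0.05 for 2 of the 10 (edgeR), both lower in rpS6P-/- mice, and 2 did not overlap. Over all genes these shares were 2.96% and 8.32%. The gene outside 2-fold was *Eya1*, a transcriptional coactivator gene, with 4.98, 11.9 and 4.68 against 1.75, 4.27 and 1.85 CPM, which did not overlap, an unadjusted p of 0.0131 and an adjusted p of 0.9996 (edgeR, Benjamini-Hochberg adjustment).

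Indirect-pathway markers were level for *Adora2a*, *Penk* and *Drd2*. *Adora2a*, an adenosine receptor gene, had 144, 132 and 142 CPM in wild-type and 147, 146 and 139 CPM in rpS6P-/- mice, with an interval of 0.861 to 1.24. *Penk*, the enkephalin precursor, had 747, 995 and 1006 against 746, 830.3 and 922 CPM (interval 0.781 to 1.06). *Drd2*, the D2 receptor gene, spread more within each genotype, with 90.2, 61.8 and 63.1 against 53.6, 80.1 and 88.9 CPM, and its interval was 0.81 to 1.31. All 3 overlapped between genotypes and lay within 1.5-fold. The highest wild-type and the lowest rpS6P-/- library for *Drd2*, wild-type replicate 1 and rpS6P-/- replicate 1, were at the same ends for *Slc17a7*, the vesicular glutamate transporter of cortical projection neurons, with 112, 59.2 and 52.3 against 48.3, 106 and 138 CPM, and whether these spreads are related was not tested. Of 9 indirect-pathway genes, 3 lay within 1.5-fold and 7 within 2-fold, and 1 had an unadjusted p under 0.05 (edgeR), on the higher side. The largest difference among them was that of *Sp9*, a transcription factor gene, at 8.93, 11.9 and 10.5 against 4.48, 5.08 and 8.48 CPM with an unadjusted p of 0.0531.

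The signalling genes that both types of medium spiny neuron use had the largest share within 1.5-fold of the neuronal lists. Of 23 tested, 21 lay within 1.5-fold and 22 within 2-fold, with a median log2 fold change of 0.05. *Ppp1r1b*, which encodes DARPP-32, the phosphatase inhibitor that integrates dopamine signals, had 849, 863 and 928 CPM in wild-type and 783, 944 and 909 CPM in rpS6P-/- mice (interval 0.866 to 1.15). *Gnal*, the G protein subunit that couples D1 receptors to cyclase, had an interval of 0.888 to 1.19, and *Pde10a*, the striatal phosphodiesterase, 0.932 to 1.27. The largest log2 fold change of the list was 0.20, for the phosphodiesterase *Pde2a*, still within 1.5-fold. Among 13 transcription factors of these neurons 7 lay within 1.5-fold and 11 within 2-fold, with *Foxp1* at 0.86 to 1.2 and *Bcl11b* at 0.896 to 1.26.

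**Figure D2:**
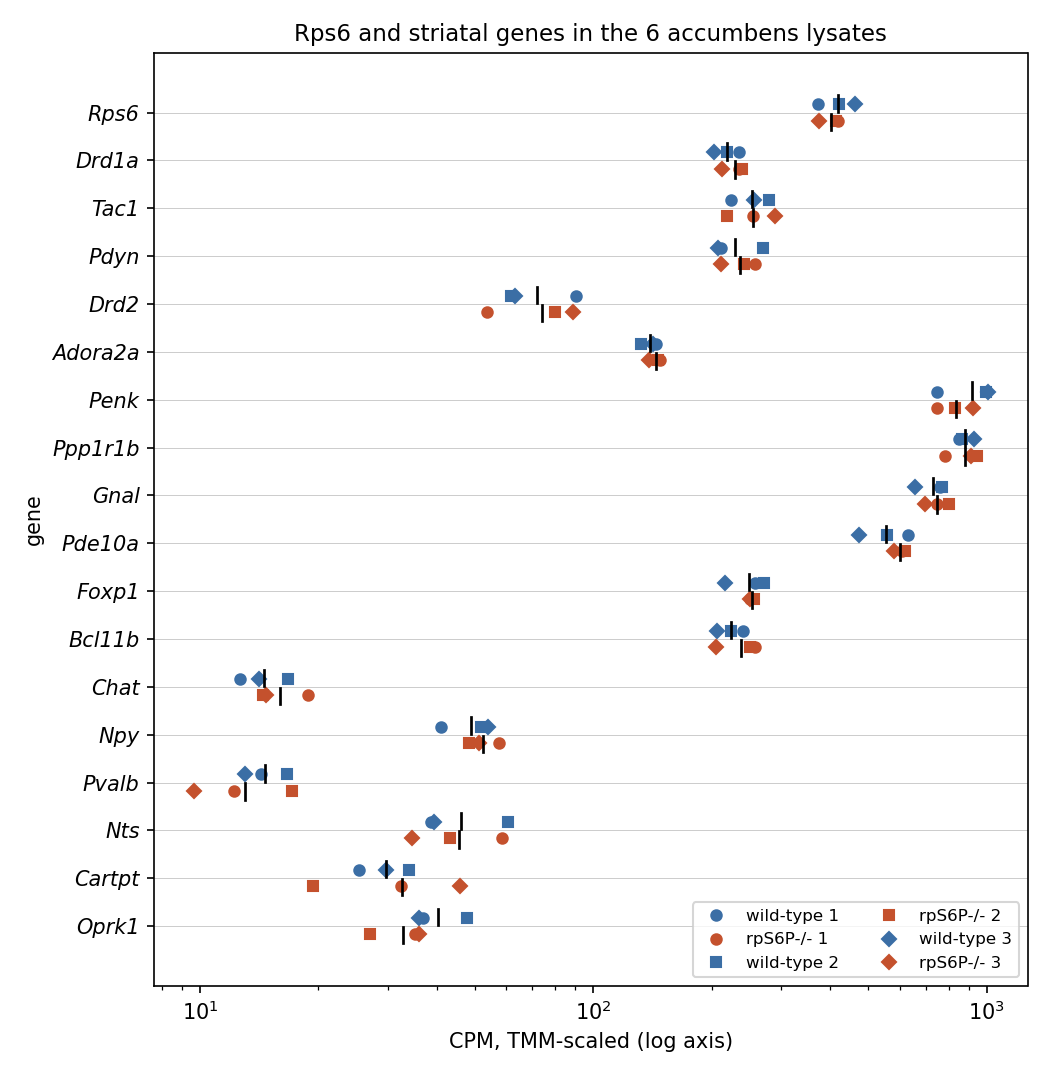
CPM (log x axis) of *Rps6* and of striatal marker genes in each of the 6 Acb lysates, with wild-type replicates in blue, rpS6P-/- replicates in red, the replicate number as the shape of the point and the mean of each genotype as a black line. The genotypes overlap for every gene drawn, and the spread is wider for the genes under 100 CPM, such as *Drd2*, *Cartpt* and *Pvalb*.

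Fewer of the rarer neuronal transcripts could be bounded. Of 22 interneuron genes, 7 lay within 1.5-fold and 14 within 2-fold. *Npy*, a peptide of one interneuron class, had an interval of 0.84 to 1.37, and *Chat*, which marks cholinergic interneurons, 12.6, 16.8 and 14.2 against 18.8, 14.4 and 14.7 CPM and an interval of 0.737 to 1.65. *Pvalb*, of the fast-spiking class, lay within 2-fold at 0.578 to 1.36. Of 21 peptide and related genes noted for the Acb, 8 lay within 1.5-fold and 11 within 2-fold, and *Nts*, the neurotensin gene, lay within 1.5-fold at 0.745 to 1.3, and *Cartpt* within 2-fold at 0.792 to 1.52. Of 11 dopamine, opioid and other receptor genes, 3 lay within 1.5-fold and 6 within 2-fold. The kappa opioid receptor gene *Oprk1*, whose ligand dynorphin comes from *Pdyn*, lay within 2-fold at 0.615 to 1.08. The mu opioid receptor gene *Oprm1* had 2.54, 0 and 0 CPM in wild-type and 1.37, 3.96 and 3.41 CPM in rpS6P-/- mice, and the dopamine D3 receptor gene *Drd3* had an interval of 0.359 to 10.1, so no level of either could be bounded at this depth. *Oxt*, the oxytocin precursor made by hypothalamic neurons, had 2.02, 6.97 and 15.9 against 2.2, 1.32 and 6.04 CPM, with an unadjusted p of 0.023 and an adjusted p of 0.9996 (edgeR, Benjamini-Hochberg adjustment). Of 8 genes of monoamine synthesis, transport and breakdown, 2 lay within 1.5-fold, among them *Maoa*. The related oxidase gene *Maob* had 27.6, 36 and 30 against 24.9, 20.6 and 19.9 CPM. *Maob* did not overlap between genotypes, and it lay within 2-fold with an interval of 0.509 to 0.964.

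Genes of the synapse and of activity were examined next. Of 23 postsynaptic and vesicle genes, 18 lay within 1.5-fold and 22 within 2-fold. The scaffold gene *Dlg4* had an interval of 0.879 to 1.18 and the vesicle gene *Syp* 0.83 to 1.1. Among members with at least 10 CPM the largest difference was that of *Stx1a*, a gene of the fusion machinery, with 44.9, 31.8 and 41.3 against 32, 61.7 and 64.9 CPM, which overlapped. Of 36 subunits of glutamate and GABA receptors, 21 lay within 1.5-fold and 30 within 2-fold, with *Gria1* at 0.896 to 1.22, *Grin1* at 0.837 to 1.2 and *Gabra2* at 0.877 to 1.35. Of 17 immediate early genes, which neurons switch on with activity, 5 lay within 1.5-fold and 15 within 2-fold. *Egr1* had 336, 248 and 290.1 CPM in wild-type and 227, 271 and 304 CPM in rpS6P-/- mice (interval 0.769 to 1.09), and *Arc* 91.2, 48.5 and 80.1 against 55.1, 96.9 and 62.8 CPM (interval 0.752 to 1.26). Both overlapped and lay within 1.5-fold. *Fos*, with 23, 17.8 and 35.1 against 12.6, 23.8 and 21.8 CPM, lay within 2-fold only, at 0.528 to 1.12.

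Glial transcripts were mostly bounded too, with oligodendrocyte genes on the lower side. Of 23 oligodendrocyte genes, 17 lay within 1.5-fold, 21 within 2-fold and 0 were called, while 22 had a lower fitted level in rpS6P-/- mice and the median log2 fold change was -0.16. *Mbp*, the myelin basic protein gene, had 651, 773 and 669.8 against 754, 607 and 458 CPM, which overlapped (interval 0.734 to 1.03). Outside both limits lay *Nkx6-2*, a transcription factor gene with few reads, and *Gjb1*, a gap junction gene, which had 16.6, 12.8 and 13.5 against 11.2, 10.7 and 4.29 CPM and an unadjusted p of 0.049. The summed level of the 23 genes was 4552, 5261 and 4949.8 CPM in wild-type and 4932, 4266 and 3889 CPM in rpS6P-/- mice. These sums overlapped through rpS6P-/- replicate 1, and an exact two-sided permutation test over the 6 libraries gave p = 0.2, where 3 against 3 cannot go below 0.1. The count of lower members ranged from 19 to 22 of 23 when each library was left out in turn, and in the DS lysates 17 of 23 were lower with a median of -0.11. On heavy polysomes of the Acb, 12 of 23 were lower and 11 higher, with a median of -0.01. Lower members also prevailed in the Acb lysates among astrocyte genes (17 of 22) and microglia genes (14 of 20). The lean was not particular to glia. Interneuron genes (15 of 22, median -0.15), peptide and related genes (15 of 21) and endothelial genes (15 of 24) shared it. Of the medium spiny neuron signalling genes 18 of 23 were higher, and over all genes 7706 of 15393 were lower. In bulk tissue, fewer cells of a type and less RNA per cell cannot be told apart.

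Of 22 astrocyte genes, 14 lay within 1.5-fold and 21 within 2-fold, with a median log2 fold change of -0.07. The glutamate transporter gene *Slc1a3* had 350.0, 371 and 319 against 388, 323 and 325 CPM (interval 0.849 to 1.17). *Aqp4*, the water channel of the endfeet, had an interval of 0.829 to 1.36, and *Gfap*, which rises in reactive astrocytes, 0.724 to 1.22. All 3 lay within 1.5-fold. Of 20 microglia genes, 4 lay within 1.5-fold and 16 within 2-fold. *Csf1r*, the receptor for the growth factor of microglia, lay within 1.5-fold at 0.83 to 1.43, as did the complement gene *C1qa* at 0.738 to 1.42. *Cx3cr1*, the fractalkine receptor gene, had 44.1, 50.7 and 48.6 CPM in wild-type and 33.4, 49.7 and 25 CPM in rpS6P-/- mice. rpS6P-/- replicate 2 overlapped the wild-type range, and *Cx3cr1* lay within 2-fold with an unadjusted p of 0.0506. Of 7 genes of oligodendrocyte precursors, 2 lay within 1.5-fold and 4 within 2-fold, among them *Pdgfra*, within 2-fold at 0.928 to 1.65.

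Vessel and surface cells left few reads, so most of their genes were not bounded. Of 24 endothelial genes, 1 lay within 1.5-fold and 5 within 2-fold, and of 16 mural and meningeal genes 0 and 2. *Cldn5*, a tight junction gene, had 1.25, 3.52 and 0.456 against 2.66, 1.12 and 0.487 CPM and an interval of 0.159 to 4.2. *Ecscr*, an endothelial surface gene, had 25, 37 and 40 reads in the wild-type libraries and 0 reads in each rpS6P-/- library. The genotypes did not overlap, and the adjusted p was 0.817 with edgeR and 0.0307 with the Wald test of DESeq2 (Benjamini-Hochberg adjustment), while the DS lysates averaged 0.806 CPM (wild-type) and 0.901 CPM (rpS6P-/-). *Ttr*, the transthyretin gene of choroid plexus, had 12.9, 4.9 and 3.2 CPM in wild-type and 0.76, 0 and 3.31 CPM in rpS6P-/- mice. rpS6P-/- replicate 3 overlapped the wild-type range, and the unadjusted p was 0.00245, while without that library the adjusted p was 0.0370 (edgeR, Benjamini-Hochberg adjustment). The list of choroid plexus and ependyma genes it belongs to did not share this direction, with 7 of 11 tested members higher in rpS6P-/- mice, 0 called, a median log2 fold change of 0.26 and summed levels of 159 to 202 CPM in wild-type and 183 to 204 CPM in rpS6P-/- mice, which overlapped. Of its members, *Otx2*, a transcription factor gene of choroid plexus, had 2.08, 2.68 and 0.685 against 4.1, 10.9 and 2.73 CPM, which did not overlap (unadjusted p 0.0163). *Clic6* had 29.7, 24.2 and 24.9 against 38.9, 23 and 32.2 CPM, which overlapped, and *Folr1* had 0 reads in all 6 libraries.

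Markers of neighbouring regions were used to ask how alike the dissections were. The summed level of 13 thalamic, septal and pallidal genes was 158, 147 and 149.5 CPM in wild-type and 142, 118 and 131 CPM in rpS6P-/- mice. These sums did not overlap, at the smallest p the exact permutation test allows (0.1, and 0.867 after Benjamini-Hochberg adjustment over the 13 marker lists summed). In this list 11 of 13 genes were lower, 0 were called and the median log2 fold change was -0.22. Its members included *Slc17a6*, the subcortical vesicular glutamate transporter, at 18.1, 18.9 and 17.1 against 16.7, 10.8 and 14.9 CPM. The 16 cortical genes had sums of 511 to 638 CPM in wild-type and 496 to 667 CPM in rpS6P-/- mice, which overlapped (exact permutation p = 0.8). The sums of the other 11 lists overlapped too. The part of the dissection in any result above was not tested.

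**Figure D3:**
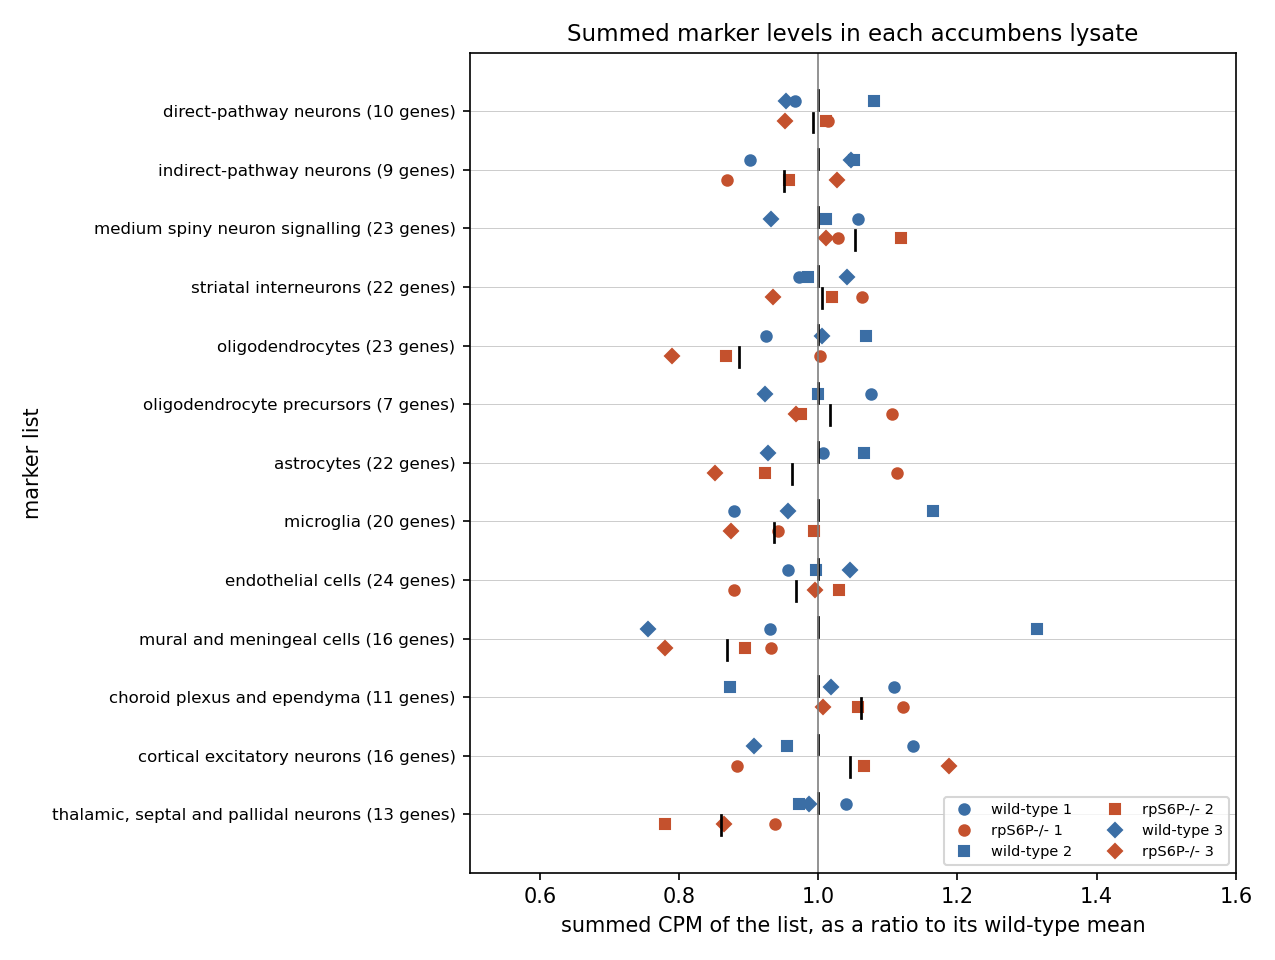
Summed CPM of each list of cell type markers in the 6 Acb lysates, divided by the mean of the 3 wild-type libraries (linear x axis). Wild-type replicates are blue, rpS6P-/- replicates red, the shape gives the replicate number and black lines mark the mean of each genotype. The 13 thalamic, septal and pallidal genes are the only list without overlap, and the oligodendrocyte sums overlap through rpS6P-/- replicate 1.

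The pools differed in genes that follow sex. *Ddx3y*, on the Y chromosome, had 37.1, 36.4 and 52.8 CPM in wild-type and 19.7, 38 and 21.1 CPM in rpS6P-/- mice (log2 fold change -0.68, unadjusted p 0.00424). *Xist*, which is transcribed from the inactive X chromosome of females, had 1.97, 4.75 and 0 against 10, 3.86 and 6.73 CPM. The rpS6P-/- pools were higher in *Xist* and lower in *Ddx3y* in the mean, both with overlap between genotypes, and neither was called (adjusted p 0.9996 for each, edgeR with Benjamini-Hochberg adjustment). The labels do not give the sexes of the pooled mice, so the part of sex in the differences above was not tested.

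Metabolic transcripts were level in most of the lists. All 15 glycolysis genes tested lay within 1.5-fold, with *Aldoa* at 0.874 to 1.15, *Hk1* at 0.82 to 1.16 and *Pkm*, the final kinase of the pathway, at 0.924 to 1.21. The other glycolysis gene listed, *Eno1*, had 9 reads over the 6 libraries and was not tested. Of 17 genes of the tricarboxylic acid cycle, 15 lay within 1.5-fold and 16 within 2-fold, among them *Cs*, citrate synthase, at 0.841 to 1.17, *Mdh2* at 0.829 to 1.17 and *Idh3a* at 0.877 to 1.25. The exception was *Idh2*, the NADP-dependent isocitrate dehydrogenase of mitochondria, with 19.3, 23 and 27.3 CPM in wild-type and 14.8, 14.9 and 14.7 CPM in rpS6P-/- mice. The genotypes did not overlap for *Idh2*, with an unadjusted p of 0.0192. Its adjusted p was 0.9996 (edgeR, Benjamini-Hochberg adjustment).

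Of 83 nuclear genes for subunits and close partners of the 5 complexes of oxidative phosphorylation, 70 lay within 1.5-fold, 78 within 2-fold and 0 were called, with a median log2 fold change of -0.04. By complex, 32 of 36 genes of complex I, 4 of 4 of complex II, 9 of 9 of complex III, 8 of 16 of complex IV and 17 of 18 of complex V lay within 1.5-fold. The 5 genes of complex IV outside 2-fold, *Cox6b2*, *Cox6a2*, *Cox4i2*, *Cox7a1* and *Cox8b*, are isoforms known from other tissues and had means of 0.0253 to 3.90 CPM. *Ndufs1*, the largest iron-sulphur subunit of complex I, had 127, 129.8 and 138 against 141, 121 and 149 CPM (interval 0.867 to 1.26). *Atp5b*, a catalytic subunit of the ATP synthase, had 776, 884 and 918 against 798, 804 and 936 CPM (interval 0.853 to 1.14). Both overlapped between genotypes. The well-counted subunit with the largest difference in complex IV was *Cox6a1*, with 96.6, 116 and 98.5 against 72.3, 61.7 and 102 CPM, where rpS6P-/- replicate 3 overlapped the wild-type range (unadjusted p 0.0143), and that in complex I was *Ndufab1*, an acyl carrier, at 0.551 to 1.03. Transcripts of the mitochondrial genome were not analysed here. Of 77 genes of the mitochondrial ribosome, 26 lay within 1.5-fold and 75 within 2-fold. *Mrpl52*, of its large subunit, had 23.9, 27.3 and 23.2 CPM in wild-type and 17.3, 7.11 and 13.1 CPM in rpS6P-/- mice, which did not overlap (log2 fold change -0.98, unadjusted p 0.00125, adjusted p 0.9996 by edgeR with Benjamini-Hochberg adjustment). Of 26 mitochondrial import and RNA factors, 16 lay within 1.5-fold and 24 within 2-fold. Of 25 genes of metabolic handling and stress, 20 lay within 1.5-fold, among them the metallothionein *Mt2* at 0.765 to 1.15, while *Ucp2*, a mitochondrial carrier, had 23.6, 31.8 and 29.8 against 17.6, 26.7 and 9.55 CPM (unadjusted p 0.0181).

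**Figure D4:**
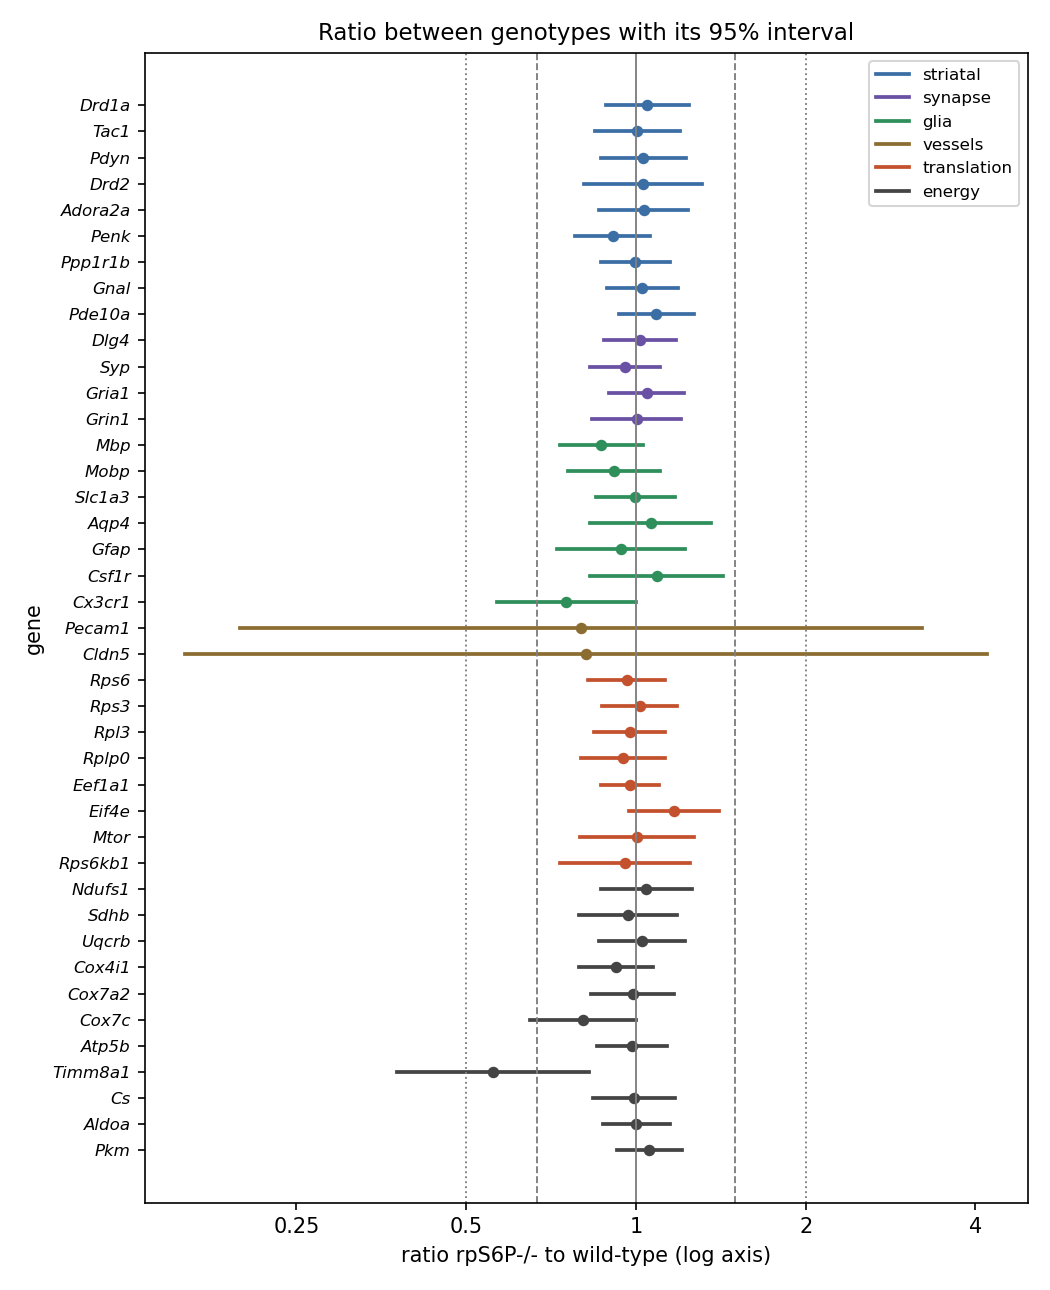
Ratio of rpS6P-/- to wild-type in Acb lysates (log x axis) for striatal, synaptic, glial, vessel, translation and energy genes, with the fitted ratio as a point and its 95% interval as a line. Dashed lines mark 1.5-fold and dotted lines 2-fold in either direction. Most intervals lie inside the dashed lines, those of *Cldn5* and *Pecam1* reach past both dotted lines, and that of *Timm8a1* lies below 1.

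Lysate values were then set beside those of the heavy polysomal fractions of the same Acb, for genes the study chose on its polysome data for a follow-up by qRT-PCR, so that their polysome values are given as a description only. The paper's DESeq2 test called these genes lower on polysomes. The fit used here called 0 of 16227 genes on Acb polysomes (lowest adjusted p 0.0898, edgeR with Benjamini-Hochberg adjustment). *Cox7a2*, a small subunit of complex IV, had 218, 259 and 271 CPM in wild-type and 232, 266 and 240.1 CPM in rpS6P-/- lysates (log2 fold change -0.02, interval of the ratio 0.834 to 1.17), against a log2 fold change of -1.19 on polysomes. *Uqcrb* and *Uqcrh*, of complex III, were within 1.5-fold in lysates at 0.858 to 1.22 and 0.802 to 1.12, with -0.93 and -1.02 on polysomes. *Slirp*, which stabilises mitochondrial RNAs, and *Dbi*, which binds acyl-CoA, were within 1.5-fold in lysates at 0.841 to 1.39 and 0.829 to 1.19, with -1.14 and -0.89 on polysomes. The lysates of these 5 genes thus bounded the ratio within 1.5-fold. *Mrpl33* lay within 2-fold in lysates at 0.665 to 1.24. *Cox7c* had 73.8, 82.4 and 76.7 CPM in wild-type and 67.2, 60.6 and 59.7 CPM in rpS6P-/- lysates, which did not overlap, and lay within 2-fold with a log2 fold change of -0.31. *Timm8a1*, a chaperone of mitochondrial import encoded on the X chromosome, was the exception, with 22.1, 23.9 and 18.1 against 10.1, 14.4 and 11.4 CPM in lysates. Its genotypes did not overlap, its log2 fold change of -0.84 in lysates stood beside -1.03 on polysomes, and it lay within neither limit (unadjusted p 0.00469, adjusted p 0.9996 by edgeR with Benjamini-Hochberg adjustment). The paper's own qRT-PCR of total Acb lysates, scaled to beta-actin, found no change in any of these genes, *Timm8a1* and *Cox7c* included.

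Whether the genotype difference in lysates differed from that on polysomes was tested as an interaction over the 12 Acb libraries. Without pairing, 0 of 16687 genes (0%) were called by edgeR and 0 by the Wald test of DESeq2, and 1992 had an unadjusted p under 0.05 in edgeR. Each lysate and its heavy polysomal fraction come from the same mice by the study's methods, and with these pairs as a block, taken from equal replicate numbers, 106 of 16687 (0.635%) were called, 84 of them with the higher value in lysates (edgeR, Benjamini-Hochberg adjustment). Among the 106 were 25 of the 83 genes of oxidative phosphorylation, 3 of 79 of the cytosolic ribosome, 1 of 17 of the tricarboxylic acid cycle and 1 of 15 of glycolysis, lists that were written with earlier results on these polysomes known. In this paired fit the spread was shared across genes almost wholly, with a median of 66748 degrees of freedom a gene from 12 libraries, so its p-values hardly use the spread of the gene itself between pools. The lowest adjusted p, 3.91e-14, was that of *Tmem38b*, whose lysate values rest on 1 library as described below. *Aldoa* and *Idh2* were called with the lower value in lysates. For *Aldoa* the log2 fold change was 0.00 in lysates and 0.82 on polysomes, and for *Idh2* -0.64 and 0.57. Over the lists, medians in lysates stayed between -0.07 and 0.00 for the large ribosomal subunit, complexes I, III, IV and V, the mitochondrial ribosome, glycolysis and the tricarboxylic acid cycle, where those on polysomes ran from -0.98 for complex IV to 0.48 for the tricarboxylic acid cycle.

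**Figure D5:**
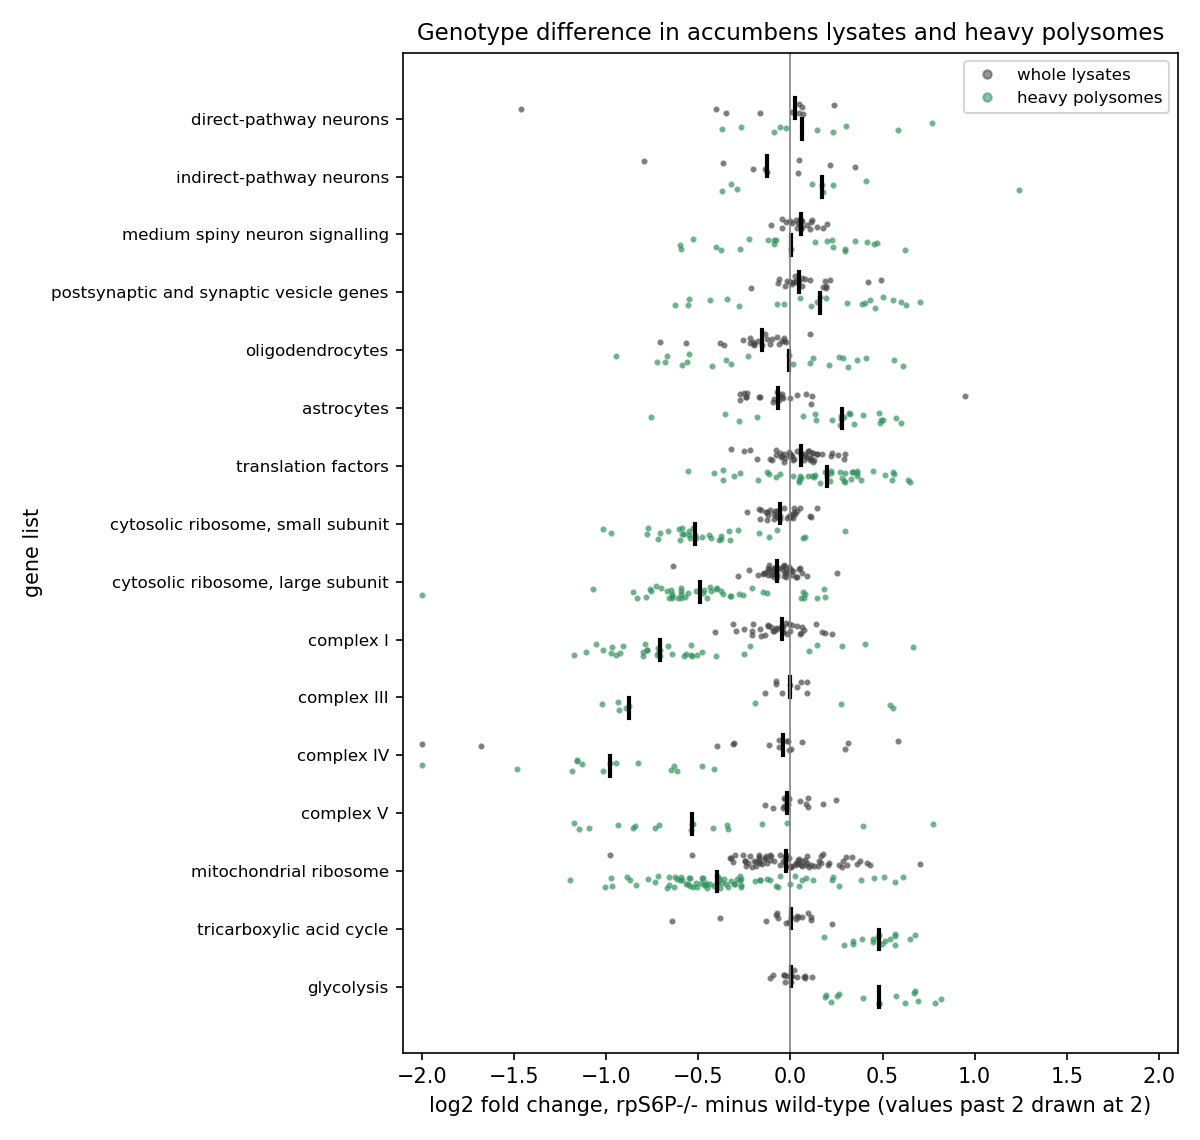
Log2 fold change between genotypes (x axis, rpS6P-/- minus wild-type) of every tested member of 16 of the gene lists, in Acb whole lysates (dark) and Acb heavy polysomal fractions (green), with the median of each list as a black line and values beyond 2 drawn at 2. Among the 16 lists drawn, the lowest lysate median is that of the oligodendrocyte genes, -0.16, and on polysomes those of the ribosomal and respiratory lists are negative and those of glycolysis and the tricarboxylic acid cycle positive.

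The gene that was called, *Tmem38b*, encodes a cation channel of the endoplasmic reticulum and lies at chr4:53825988-53862019 (GRCm38). It had 80.9, 44.1 and 126 CPM in wild-type and 110.2, 101 and 792 CPM in rpS6P-/- mice. rpS6P-/- replicates 1 and 2 lay inside the wild-type range and replicate 3 far above it. The log2 fold change of 2.01 (SE 0.342, adjusted p 0.0135 by edgeR with Benjamini-Hochberg adjustment) was 0.35 with an adjusted p of 0.999 without rpS6P-/- replicate 3, and the adjusted p was 0.170 without wild-type replicate 1 and 0.561 without wild-type replicate 2. In heavy polysomal fractions of the Acb its log2 fold change was -1.15 (SE 0.673, adjusted p 0.338 by edgeR with Benjamini-Hochberg adjustment). The pools spread widely there too, with means of 607 ± 533 CPM in wild-type and 274 ± 257 CPM in rpS6P-/- mice (SD, n = 3). In DS lysates the log2 fold change was 0.18.

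Among genes with at least 50 reads per library on average and with the genotypes apart in all libraries, those 5 with the lowest unadjusted p in each direction were *Kif3a*, *Lrrc17*, *BB031773*, *Pou2f1* and *Galc*, higher in rpS6P-/- mice, and *Ptgds*, *Plce1*, *Lrfn1*, *Mrpl52* and *Foxred1*, lower. None of them was called. *Lrrc17*, which encodes a secreted leucine-rich repeat protein, had 8.56, 13.6 and 14.7 CPM in wild-type and 23.3, 31 and 24.3 CPM in rpS6P-/- mice, and its adjusted p was 0.817 (edgeR, Benjamini-Hochberg adjustment). *Galc*, a lysosomal enzyme that breaks down a myelin lipid, had 16.2, 12.3 and 14.3 against 18.2, 23.4 and 35.4 CPM. *Ptgds*, the prostaglandin D synthase of oligodendrocytes, meninges and choroid plexus, had 110.2, 178 and 116 against 94, 73.9 and 101 CPM, lay within 2-fold and had an unadjusted p of 0.000404. *Lrfn1*, a synaptic adhesion gene, had 12.1, 13 and 12.9 against 8.05, 2.95 and 2.83 CPM, and *Plce1*, a phospholipase gene, 18, 24.3 and 17.7 against 12.5, 5.39 and 9.07 CPM. The lack of overlap was part of the rule that chose these genes.

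Among the 1769 genes with at least 100 CPM, 20 did not lie within 1.5-fold, and 11 of these were lower in rpS6P-/- mice. All but *Tmem38b* lay within 2-fold. Besides *Kif3a*, *Ptgds* and *Malat1* they held genes chosen here after their values were seen. *Ndn*, a maternally imprinted gene of neurons, had 273, 254 and 362 CPM in wild-type and 229.8, 235 and 206 CPM in rpS6P-/- mice, which did not overlap (unadjusted p 0.00237). *Slc6a11*, the GABA transporter of astrocytes, had 129, 138 and 158 against 131, 113 and 103 CPM, which overlapped. *Rn45s*, the gene of the ribosomal RNA precursor, had 16519, 14581 and 22631 against 21503, 10330.3 and 36224 CPM. It overlapped and spread widely within each genotype. Counts per gene do not tell the precursor from the mature ribosomal RNA within it.

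Of nuclear noncoding RNAs, only what reached the cytosolic lysate was counted. *Malat1* had 1028, 803 and 875 CPM in wild-type and 522, 598 and 948 CPM in rpS6P-/- mice. rpS6P-/- replicate 3 lay inside the wild-type range, *Malat1* lay within 2-fold at 0.637 to 0.915, and its adjusted p was 0.9996 (unadjusted 0.00441, edgeR with Benjamini-Hochberg adjustment), although it was called without rpS6P-/- replicate 3. *Bc1*, a noncoding RNA of dendrites, had a 95% interval of 0.995 to 1.26, within 1.5-fold, but its log2 fold change ran from 0.02 without rpS6P-/- replicate 1 to 0.40 without wild-type replicate 3, where it was called. *Meg3* had an interval of 0.901 to 1.21. Of the 10 neuronal noncoding RNAs listed, 5 lay within 1.5-fold and 9 within 2-fold. All but *Malat1* had a higher fitted level in rpS6P-/- mice, and the median log2 fold change was 0.12. Of 10 common reference genes for normalisation, 7 lay within 1.5-fold and 10 within 2-fold, with *Actb* at 0.899 to 1.18 and *Hprt* at 0.89 to 1.26.

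Genes that start within 5 Mb of *Rps6* on chromosome 4 were examined because a knockin carries its neighbourhood with it. Of 70 such genes in the table, 25 were tested, 9 of them within 1.5-fold and 13 within 2-fold, with 0 called, 3 at an unadjusted p under 0.05 (2.96% over all genes) and 5 without overlap between genotypes (8.32% over all genes). The 3 were *Acer2*, *Dennd4c* and *Mllt3*, all lower in rpS6P-/- mice and without overlap. *Plin2* and *Psip1*, also without overlap, were higher. *Psip1* had log2 fold changes of 0.16 in Acb lysates, 0.67 on Acb polysomes and 0.31 in DS lysates. Those of *Plin2* were 0.80, 1.03 and -0.34 in the same order. None of these was called (edgeR, Benjamini-Hochberg adjustment). *Dennd4c*, which lies on the other side of *Rps6*, had 17.5, 20.1 and 16.2 against 11.9, 10.7 and 13.1 CPM (unadjusted p 0.0455), and *Mllt3*, a gene of transcription elongation, 49.6, 41.5 and 41.1 against 31.8, 31.3 and 31.2 CPM (unadjusted p 0.0155). On Acb polysomes and in DS lysates the log2 fold change was 0.05 and -0.26 for *Dennd4c* and 0.27 and 0.13 for *Mllt3*. *Acer2*, a ceramidase gene that lies next to *Rps6* at chr4:86874348-86932524, had 9.55, 8.27 and 9.81 CPM in wild-type and 5.55, 0.305 and 3.31 CPM in rpS6P-/- mice. All rpS6P-/- libraries lay below all wild-type libraries, with 3 to 73 reads against 86 to 184. The log2 fold change was -1.57 in Acb lysates (SE 0.535, unadjusted p 0.00565, adjusted p 0.9996), -1.89 on Acb polysomes (adjusted p 0.0983) and -1.30 in DS lysates (adjusted p 0.267), each by edgeR with Benjamini-Hochberg adjustment, and none passed the cutoff. Its value in Acb lysates was -2.33 without rpS6P-/- replicate 1 and -1.05 without rpS6P-/- replicate 2.

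The genotype difference in Acb lysates was compared with that in DS lysates as an interaction over 12 libraries. Of 16364 genes, 1 was called (0.00611%), *Kif3a*, a motor subunit of the kinesin that serves cilia and axons, at chr11:53565701-53604248 (edgeR, Benjamini-Hochberg adjustment). In Acb lysates it had 419, 595 and 684 CPM in wild-type and 1044, 796 and 764 CPM in rpS6P-/- mice, which did not overlap. The log2 fold change was 0.62 (SE 0.125, adjusted p 0.0816), so the gene was not called in the Acb itself as fitted here, although it was under 5 alternatives that kept the 6 libraries and without rpS6P-/- replicate 3 or wild-type replicate 3, and it was -0.30 in the DS, with means of 603 ± 85 and 488 ± 27.4 CPM in wild-type and rpS6P-/- mice (SD, n = 3; edgeR fits with Benjamini-Hochberg adjustment). The difference between regions lost its call without rpS6P-/- replicate 1 (adjusted p 0.120), without wild-type replicate 1 (0.0750), under a stricter filter on low reads (0.152) and with the Wald test of DESeq2 (0.530), each adjusted by Benjamini-Hochberg beside 0.00848 with edgeR. In DS lysates the median log2 fold change was 0.05 for the 23 medium spiny neuron signalling genes, -0.07 for the 79 ribosomal genes and -0.10 for the 83 genes of oxidative phosphorylation, beside 0.05, -0.06 and -0.04 in the Acb.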

How the data were processed

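Whole-lysate RNA of the Acb was sequenced from 3 rpS6P-/- and 3 wild-type pools. The authors made poly-A selected stranded libraries, mapped reads with TopHat2 2.0.13 and Bowtie2 2.2.3 to mm10, and counted them with HTSeq 0.6.1p1; the deposited values are raw read counts per gene, in 1 table of 24079 genes, whose columns were matched to the labels. Groups were taken from the labels. Totals were 9280589 to 18177175 reads per library, which limits what is said of genes with few reads; intervals rest on the spread between these 6 libraries.

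Genes with at least 15 reads over the 6 libraries (15393) were fitted with edgeR 4.0.16 (quasi-likelihood F test, TMM scaling, genotype as the only term; R 4.3.3) and p-values adjusted by Benjamini-Hochberg at 0.05. Limits of 1.5-fold and 2-fold were tested with 2 one-sided tests on the same fit. Interactions with region and with kind of RNA were fitted over 12 libraries each. Summed marker levels were compared with exact permutation tests (scipy 1.17.1), which 3 against 3 samples cannot take below 0.1. The script was tested on simulated data, where 161 of 200 genes given a log2 change of 1.5 were called with 18 unchanged genes, among 15004 genes. Smaller changes and genes with few reads are not in that count of 200. DESeq2 1.42.0, limma 3.58.1, other scalings and filters, a replicate block and leaving out each library were alternatives. The *Rps6* sequence, the interval given with it and transcript lengths are GENCODE's, and gene coordinates are RefSeq's, GRCm38.p6.

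Genes were named when they were *Rps6*, were core members of a list, were called, had the largest difference in a list among genes with at least 50 reads per library on average, or were among the 5 of lowest p in each direction without overlap; others are said to be chosen after their values were seen or stand as members of their lists. The members and lists were chosen with earlier results of these data known. A withheld item is not reported here.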

Additional observations from a re-analysis of the deposited data

Results flagged for a closer look

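*Kif3a* was marked because its genotype difference in the Acb lysates and that in the DS lysates had opposite signs and the difference between them passed its test. The log2 fold change in the Acb minus that in the DS was 0.92 (SE 0.165, adjusted p 0.00848 by edgeR with Benjamini-Hochberg adjustment). In the Acb all 3 rpS6P-/- libraries were above all 3 wild-type libraries. On heavy polysomes of the Acb its log2 fold change was 0.31 (adjusted p 0.355), and it had 113 CPM there in the wild-type mean against 566 CPM in the lysates. The part of any 1 pool or of the dissection in this difference was not tested beyond the libraries left out above.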

How the results depend on the processing

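The number of genes called, 1 as reported, was 0 under a stricter filter on low reads and in fits over all 24 libraries or the 12 of the Acb, 2 with every gene of at least 1 read, with the bias-adjusted quasi-likelihood fit and with the length trend removed (chosen after seeing the data), and 5 with limma-voom. *Kif3a* was called beside *Tmem38b* in each of those 3 fits, and limma-voom and a replicate block each called these with *Bc1*, *Malat1* and *Cwc22*. It ranged from 0 to 3 when each library was left out, with *Malat1*, *Kif3a* and *Ttr* called without rpS6P-/- replicate 3, and *Tmem38b* lost without that library, wild-type replicate 1 or wild-type replicate 2 (where *Cwc22* was called), and *Bc1*, *Kif3a* and *Tmem38b* called without wild-type replicate 3, and DESeq2's Wald test called *Ecscr* in place of *Tmem38b*. The genes within 1.5-fold, 4595 as reported, numbered 2658 to 3587 with a library left out, lowest without wild-type replicate 1, and 4219 to 5081 otherwise; those within 2-fold numbered 8149 to 9745 throughout. The difference between regions called 0 genes with DESeq2's Wald test and with the stricter filter, and 0 to 4 with a library left out. The labels name nothing but a number that same-numbered lysates of the genotypes share. Correlations of their deviations were 0.0867, -0.0197 and 0.174. Those of lysates with unlike numbers ran from -0.149 to 0.0828, lowest between replicates 1 and 3. The correlation with transcript length fell with replicate number in wild-type (0.362, -0.0559 and -0.346) and rpS6P-/- lysates (0.216, 0.109 and -0.181). What same-numbered lysates have in common was not tested. A replicate block gave 5 calls between genotypes, 5081 genes within 1.5-fold and 6 calls for the difference between regions. It gave 106 calls for lysates against polysomes, where the pairs come from the same mice.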
